A study of Rattus norvegicus with 9 samples.

Results

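The genes described here encode the proteins of the mitochondrial ribosome, read in blood mononuclear cells of rats on chow or on a cafeteria diet. They were taken by name: every array probe whose gene name begins with Mrpl (large subunit) or Mrps (small subunit) followed by a number. This gave 76 probes of 64 genes, 40 named for the large and 24 for the small subunit, among 22086 genes tested. Where a gene had several probes, the one of highest mean signal stood for it. All 76 probes passed the filter on dim probes, and 74 of them were well above background on all 9 arrays.

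The samples were peripheral blood mononuclear cells (PBMC, the lymphocytes and monocytes that density separation keeps) of 9 male Wistar rats, bled from a leg vein without fasting at the age of 6 months. The control group of 4 rats ate chow. The cafeteria group of 5 rats was offered palatable, fat-rich food beside chow from 2 months of age on, over 4 months, as a model of obesity brought on by diet. Each array carried Cy5-labelled RNA of 1 rat against a Cy3-labelled pool of RNA from all groups, so each value below is a log2 ratio to that pool, in which 0 means the level of the pool. The labels name no other treatment, and all rats were of the same strain.

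The mitochondrial ribosome makes the few proteins that the mitochondrial genome encodes, all of them parts of the respiratory chain and ATP synthase. Its ribosomal RNAs are transcribed from the mitochondrial genome. Its proteins are all encoded in the nucleus, made in the cytosol and imported. Some descend from bacterial ribosomal proteins and others occur only in mitochondria. The names were given early and are not exact: in structures of the mammalian ribosome, the products of Mrps18a and Mrps30 sit in the large subunit, and Mrps36, now named Kgd4, is a part of the 2-oxoglutarate dehydrogenase complex. The genes are counted below by name.

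Each array had 58.8% to 66.7% of its spots well above background in Cy5. Control 4 and cafeteria 4 stood apart, since the interquartile range of their log2 ratios over all genes was 0.049 and 0.050, against 0.15 to 0.30 on the other 7 arrays. Values without both are given where they matter. Defining markers of the labelled cells were present: all 14 T cell and all 10 B cell markers tested, and 10 of 11 monocyte markers, were well above background on every array. Several marker lists held genes with an unadjusted limma p under 0.05, against 4.08% of all genes, and none passed the adjusted threshold. These were 6 of 10 erythroid, 3 of 11 cytotoxic T and NK cell and 1 of 10 B cell markers with a higher cafeteria mean, and 2 of 14 T cell and 1 of 6 neutrophil markers with a lower one. Whatever the p, the cafeteria mean was higher for all 10 B cell markers, 8 of 10 erythroid and 3 of 4 dendritic cell markers. It was also higher for 8 of 11 cytotoxic T and NK cell markers. It was lower for 13 of 14 T cell, all 5 plasma cell, 4 of 6 neutrophil and 7 of 11 monocyte markers. Over all genes 54.8% had a higher cafeteria mean. The platelet list had no gene with an unadjusted limma p under 0.05, and its 8 means were all lower, with a median log2 fold change of -0.38. In bulk samples fewer cells of a type and less RNA per cell cannot be told apart. The part of cell composition in the values below was not tested.

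Most of the 64 genes lay close to the reference level in every rat. Of 576 values (64 genes on 9 arrays), 568 (98.6%) were within 0.5 of 0 on the log2 scale, which is 1.41-fold. The lowest value was -0.62 and the highest 0.65, and both belonged to Mrps18c. The heat map of the log2 ratios shows the genes by name and the rats by group.

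**Figure D1:**
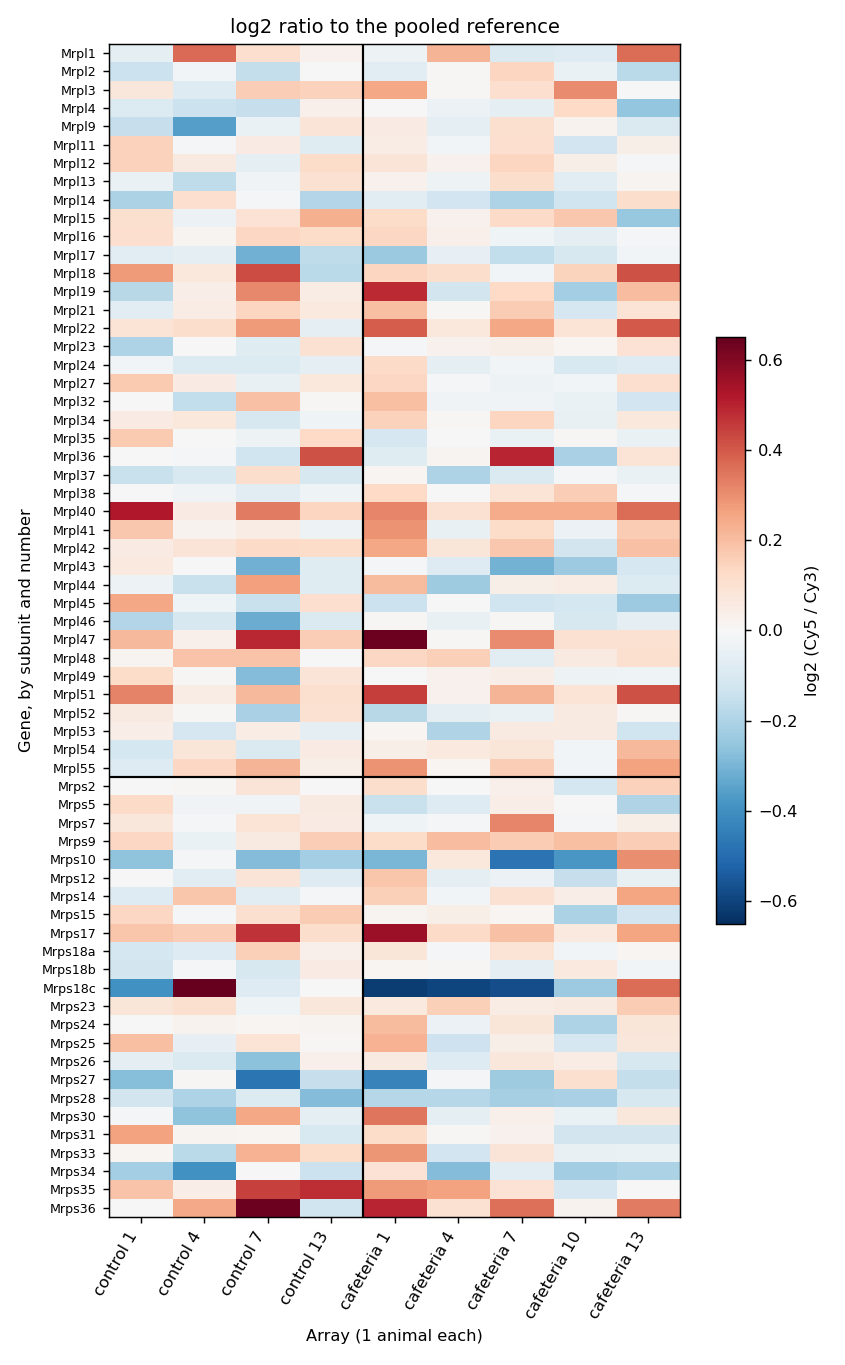
Each row is 1 mitochondrial ribosomal protein gene, large subunit above the horizontal line and small subunit under it, and each column is 1 array (1 rat), control left of the vertical line and cafeteria right of it. Colour gives the log2 ratio of the rat's RNA to the pooled reference, from -0.65 (blue) to 0.65 (red); most cells are pale, and the Mrps18c row holds both ends of the range.

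No mitochondrial ribosomal protein gene differed between the diets after adjustment. In limma, with p-values adjusted over all 25808 probes by the Benjamini-Hochberg method, 0 of 64 genes passed an adjusted p of 0.05, and the smallest adjusted p among them was 0.997. Of all probes 2 passed (0.00775%), and of all genes 1 (0.00453%). At an unadjusted limma p under 0.05 there was 1 member (1.56%), higher in the cafeteria group, against 4.08% of all genes (1.62% higher and 2.46% lower). Leaving out control 4 gave 3 such members (4.69%, against 4.93% of all genes in that fit), and leaving out control 1 or cafeteria 7 gave 0. The alternative processings gave 0 to 8, the most with the authors' table as deposited (12.9% of members and 12.7% of all genes), and none passed adjustment. In 0 of 64 genes were the 2 groups free of overlap, against 1.1% of all genes.

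With loess, the intervals around these differences were narrow for most members. The 95% interval of the cafeteria over control fold change lay wholly within 1.5-fold in either direction for 63 of 64 genes (98.4%), against 91.2% of all genes. It lay within 1.25-fold for 54 of 64 (84.4%), against 66% of all genes. The exception at 1.5-fold was Mrps18c. This depended on the scaling: with median centring 29 of 64 intervals (45.3%) lay within 1.5-fold, against 63.5% of all genes. With slide as a block it was 55 of 64 (85.9%), against 75.4%. That fit draws the difference only from the 2 slides that held both groups, so it rests on fewer arrays.

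**Figure D2:**
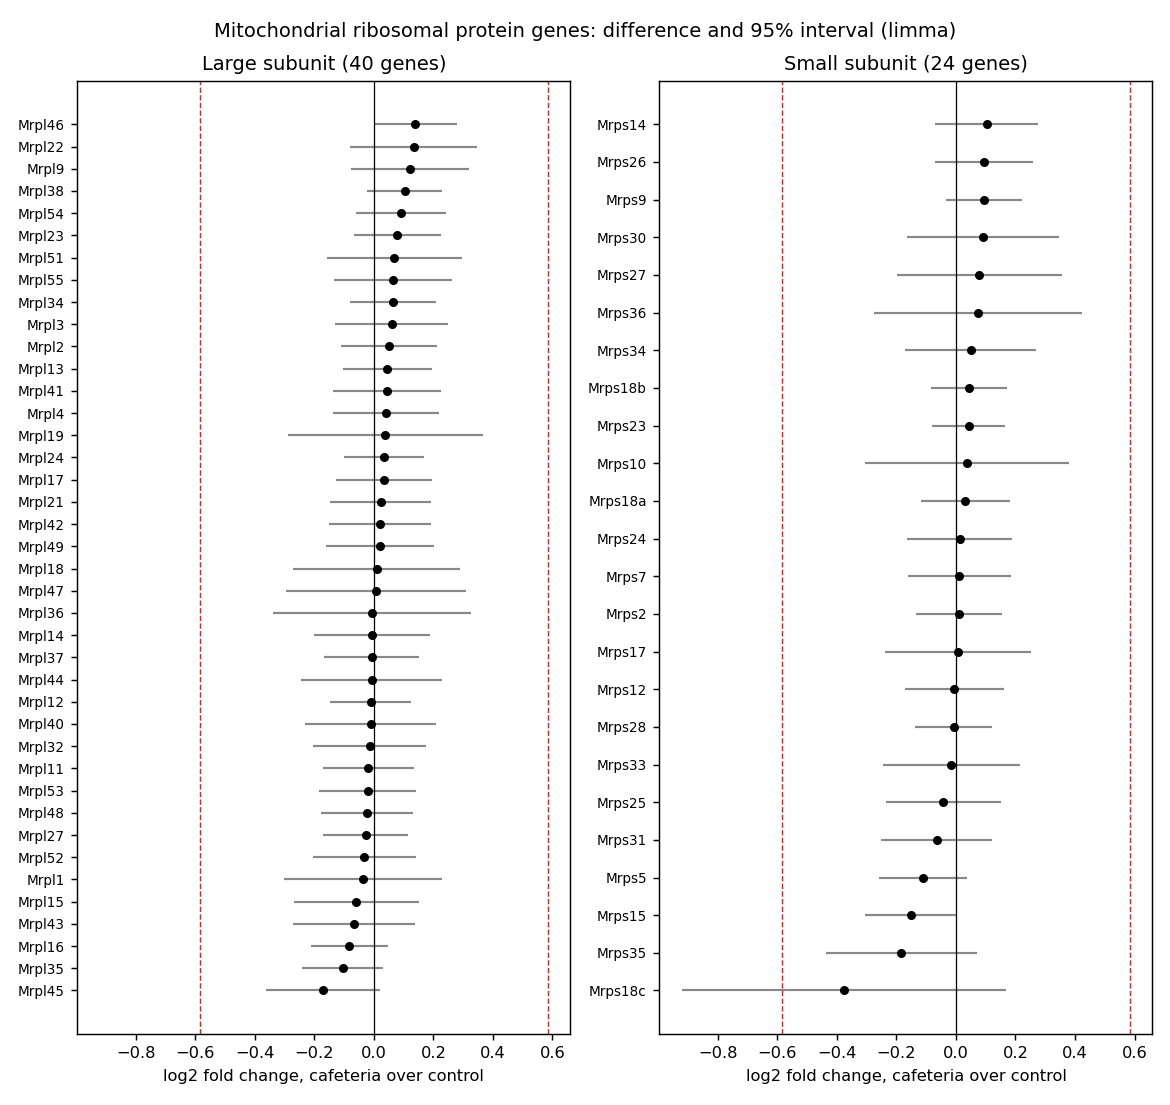
Points are the log2 fold change of cafeteria over control for each mitochondrial ribosomal protein gene and bars its 95% interval from limma, with the large subunit left, the small subunit right, and dashed lines at 1.5-fold. The bars of all genes but Mrps18c stay between the dashed lines.

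The large subunit, which joins amino acids to the growing chain, had 22 of 40 genes with a higher mean in the cafeteria group and 18 with a lower one. The median of its 40 log2 fold changes was 0.015. The small subunit, which binds the messenger RNA and reads its codons, had 15 genes with a higher and 9 with a lower mean, and a median of 0.012. Over all genes 54.8% had a higher and 45.2% a lower mean in the cafeteria group, and the median was 0.010. Among the 37 members with a bacterial homolog the median was 0.011, and among the 25 found only in mitochondria it was 0.021. The sign of these medians was not stable: the large subunit had -0.003 with no background correction, the small subunit -0.02 with median centring and -0.003 without control 4, and both were below 0 without cafeteria 1 (-0.006 and -0.007).

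Rat by rat, the median of the 64 genes was 0.004 in control 1, -0.003 in control 4, 0.031 in control 7 and 0.031 in control 13. It was 0.10 in cafeteria 1, -0.003 in cafeteria 4, 0.047 in cafeteria 7, -0.027 in cafeteria 10 and 0.017 in cafeteria 13. The cafeteria group thus held both the highest and the lowest median, and the groups overlapped. In cafeteria 1, 48 of 64 genes were above the reference, and in cafeteria 10, 26 of 64. Both of these rats shared a slide with a control rat. Within the slide of control 1 and cafeteria 1 the difference of the 2 medians, cafeteria minus control, was 0.10, and within the slide of control 13 and cafeteria 10 it was -0.06. The difference between the diets did not keep its sign within slides. The other 5 slides held 1 array each.

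**Figure D3:**
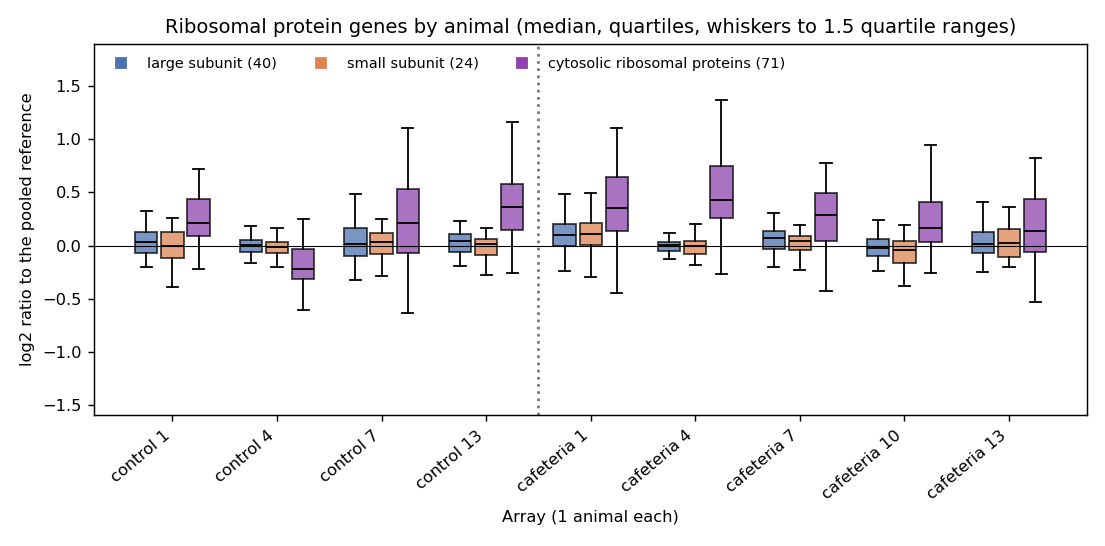
Boxes give the median and quartiles of the log2 ratio to the pooled reference over the 40 large subunit, 24 small subunit and 71 cytosolic ribosomal protein genes on each array, with whiskers to 1.5 interquartile ranges; control arrays are left of the dotted line. The mitochondrial boxes sit near 0 on every array, highest in cafeteria 1, while the cytosolic boxes move more from rat to rat.

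Among large subunit genes, Mrpl46 had the smallest p. Its product is a mitochondria-specific protein of the central protuberance (rn4 build, chr1:134499229-134499288). Its log2 ratio was -0.19, -0.11, -0.32 and -0.10 in the control rats and 0.01, -0.05, 0.01, -0.10 and -0.06 in the cafeteria rats, each group in the order of its rat numbers. Control 7 was lowest, and cafeteria 10 lay just below control 13. The group means were -0.18 ± 0.11 (SD, n = 4) and -0.04 ± 0.05 (SD, n = 5). The log2 fold change was 0.14 (SE 0.062), with a limma p of 0.049 unadjusted and 0.997 adjusted. Within the slide of control 1 and cafeteria 1 it was 0.20, and within that of control 13 and cafeteria 10 -0.01. Without control 4 and cafeteria 4 it was 0.17, with a limma p of 0.074 before adjustment, and without control 7 it was 0.09.

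Mrpl45, which lies at the exit of the peptide tunnel and helps hold the ribosome at the inner membrane, was lower in the cafeteria mean (chr10:86056720-86056779). Its log2 ratio was 0.25, -0.03, -0.14 and 0.11 in the controls. In the cafeteria rats it was -0.14, 0.00, -0.13, -0.11 and -0.24. Controls 4 and 7 lay within the range of the cafeteria values, and controls 1 and 13 above it. The log2 fold change was -0.17 (SE 0.085), or -0.10 without control 1, and did not pass (limma adjusted p 0.997).

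The other large subunit genes of smallest p had differences of like or smaller size. Mrpl38 and Mrpl54, both specific to mitochondria, had log2 fold changes of 0.10 (SE 0.056) and 0.093 (SE 0.068). Mrpl22, whose bacterial homolog lines the exit tunnel, had 0.13 (SE 0.096), and Mrpl9 had 0.12 (SE 0.089). Mrpl35 had -0.10 (SE 0.061), and Mrpl16, whose bacterial homolog helps form the site that binds transfer RNA, had -0.08 (SE 0.058). The group values of each of these genes overlapped. Leaving out 1 array moved some by over 1.5 times: Mrpl22 was 0.08 without control 13, Mrpl54 0.06 without control 1 or cafeteria 13, and Mrpl35 -0.07 without control 1. Mrpl9 was 0.04 without control 4 and 0.19 without control 13. Mrpl12 and Mrpl11 belong to the stalk that binds translation factors, and Mrpl12 also binds the mitochondrial RNA polymerase. Their log2 fold changes were -0.01 (SE 0.061, 95% interval -0.15 to 0.13) and -0.02 (SE 0.069, 95% interval -0.17 to 0.14).

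In the small subunit, Mrps15 had the smallest p (chr5:145404526-145406482, a span longer than the 60 bases of a probe). It encodes a homolog of bacterial S15, which binds the ribosomal RNA early in assembly. Its log2 ratio was 0.14, -0.01, 0.10 and 0.16 in the controls and 0.02, 0.04, 0.01, -0.21 and -0.12 in the cafeteria rats. Control 4 alone lay among the cafeteria values. The log2 fold change was -0.15 (SE 0.069), not past the threshold (limma adjusted p 0.997). It was -0.21 (SE 0.082) without control 4 and cafeteria 4, and -0.10 in the authors' deposited table after centring. In that table as deposited it was 0.03, where the median of all genes was 0.13.

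Mrps35, a mitochondria-specific protein, had log2 ratios of 0.18, 0.04, 0.45 and 0.48 in the controls and 0.28, 0.26, 0.09, -0.11 and 0.00 in the cafeteria rats (chr4:184656638-184660684). Controls 7 and 13 were above every cafeteria rat, and controls 1 and 4 were not. The log2 fold change was -0.18 (SE 0.11), -0.12 without control 13, and -0.31 (SE 0.12) without control 4 and cafeteria 4. It was 0.09 within the slide of control 1 and cafeteria 1 and -0.59 within that of control 13 and cafeteria 10. Leaving out control 4 and cafeteria 4 gave 3 members with an unadjusted limma p under 0.05 in place of 1, Mrps14 higher and Mrps15 and Mrps35 lower in the cafeteria group. These were 4.69% of the members, against 4.68% of all genes in the same fit, and none passed adjustment.

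The other small subunit genes of smallest p with a higher cafeteria mean were Mrps9, Mrps14 and Mrps26. Mrps9 and Mrps14 are homologs of bacterial proteins of the subunit's head, with log2 fold changes of 0.093 (SE 0.057) and 0.10 (SE 0.078), and Mrps26 had 0.095 (SE 0.073). Those with a lower cafeteria mean were Mrps5, with -0.11 (SE 0.067), and Mrps31, with -0.06 (SE 0.083). Leaving out 1 array moved these too: Mrps26 was 0.04 without control 7, Mrps9 0.05 without control 4, and Mrps31 ran from -0.11 without control 13 to 0.01 without control 1. Mrps14 was 0.07 without cafeteria 13 and 0.16 without control 4. Mrps12 is the homolog of the bacterial protein at the decoding site. Its log2 fold change was -0.01 (SE 0.075, 95% interval -0.17 to 0.16). None of these passed adjustment in limma.

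Mammals have 3 genes for homologs of bacterial S18, Mrps18a, Mrps18b and Mrps18c, each encoding a different part of the ribosome. In these rats the 3 genes differed widely in spread. Mrps18c (chr14:10096588-10096731) had log2 ratios of -0.39, 0.65, -0.08 and 0.00 in the controls and -0.62, -0.60, -0.57, -0.24 and 0.36 in the cafeteria rats. Control 4 was highest and cafeteria 1, 4 and 7 were lowest, but cafeteria 13 lay above 3 of the 4 controls. The log2 fold change was -0.38 (SE 0.24, 95% interval -0.92 to 0.17), with a limma p of 0.155 unadjusted and 0.997 adjusted. Without control 4 and cafeteria 4 it was -0.11 (SE 0.23), and with 1 array left out it ran from -0.17 (without control 4) to -0.55 (without cafeteria 13).

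Mrps18a (chr9:10419252-10419311) stayed between -0.11 and 0.15 in all 9 rats. Its log2 fold change was 0.03 (SE 0.067). Mrps18b (chr20:2987325-2987478) stayed between -0.12 and 0.06, with a log2 fold change of 0.04 (SE 0.057). The standard deviation (SD) over the 9 arrays was 0.45 for Mrps18c, 0.084 for Mrps18a and 0.064 for Mrps18b.

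**Figure D4:**
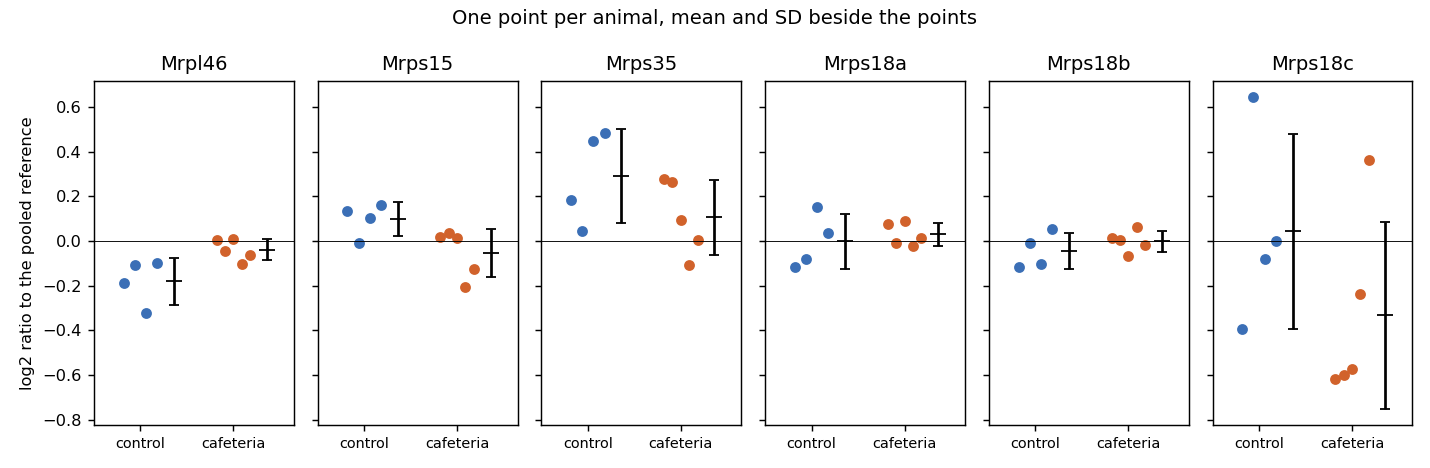
Each point is 1 rat's log2 ratio to the pooled reference for Mrpl46, Mrps15, Mrps35 and the 3 S18 homologs, control in blue and cafeteria in orange, with the group mean and SD beside the points. The groups overlap in all 6 genes, and Mrps18c spans far more of the axis than Mrps18a or Mrps18b.

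Mrps18c ranked 1, 2 or 3 by SD among the members under each of 7 scalings of the data. The next by SD were Mrps36 (0.25), Mrps10 (0.25) and Mrps35 (0.20) in the small subunit. In the large subunit they were Mrpl36 (0.24), Mrpl19 (0.23), Mrpl47 (0.21) and Mrpl18 (0.19). The Mrpl36 probe is placed on another chromosome than the RefSeq gene of that name, and the second Mrpl18 probe had an SD of 0.12. Mrps36 ran from -0.13 in control 13 to 0.64 in control 7, and Mrps10 from -0.48 in cafeteria 7 to 0.30 in cafeteria 13. Mrps10 was well above background on 8 of the 9 arrays. The members that varied least were Mrps23 (0.058), Mrps28 (0.061), Mrps18b (0.064) and Mrps2 (0.077) in the small subunit, and Mrpl12 (0.070), Mrpl24 (0.070), Mrpl16 (0.076) and Mrpl38 (0.079) in the large.

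The median SD over the 9 arrays was 0.11 for the members and 0.13 for all genes. Below the median of all genes lay 41 of 64 members, but only 13 of 64 when arrays were centred on their median in place of loess and 25 of 64 with Cy5 signal alone. Cytosolic ribosomal proteins belong to the ribosome that translates nuclear genes. For the 71 such genes named Rpl, Rps or Rplp with a number, the median SD was 0.24 in the loess values. Genes with other names, such as Fau described below, were not among them. None of those 71 genes had an unadjusted limma p under 0.05, and the sign of their median log2 fold change depended on the scaling and on the arrays (0.14 with loess, -0.07 with median centring, 0.02 without control 4 and -0.03 without control 4 and cafeteria 4).

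**Figure D5:**
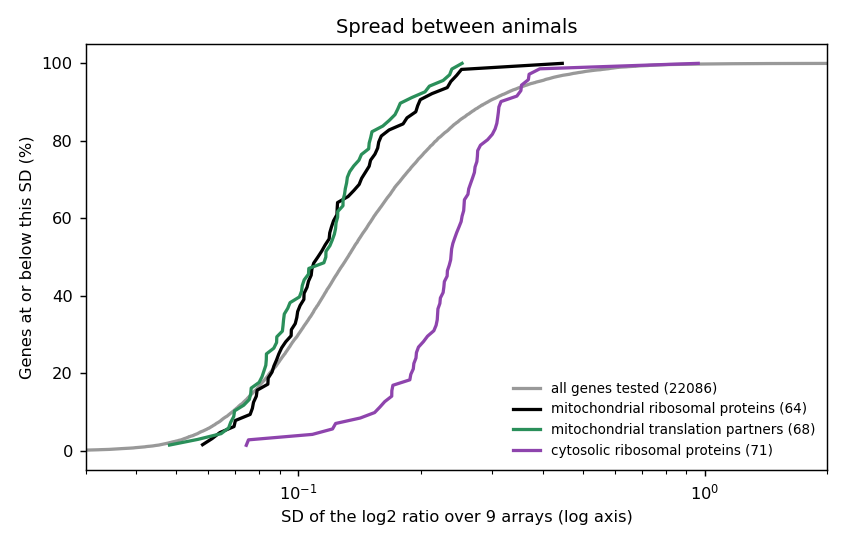
Curves give the percentage of genes whose SD of the log2 ratio over the 9 arrays is at or below the value on the horizontal log axis. The mitochondrial ribosomal proteins (median 0.11) and the partner genes of mitochondrial translation run left of all genes (0.13), and the cytosolic ribosomal proteins (0.24) run to the right.

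The members did not move as one set from rat to rat in the loess values. The mean Pearson correlation over all pairs of members, across the 9 arrays, was 0.072. It was 0.065 within the large and 0.062 within the small subunit, 0.61 among the cytosolic ribosomal proteins and 0.008 among all genes. The points share arrays and 1 reference pool, and these values are descriptions. The figure depended on the scaling, from 0.047 with no background correction to 0.66 with median centring, where all genes had 0.22. It was lower for the members than for the cytosolic proteins under each of the 7 scalings, but the gap also depended on the scaling. Members had 0.10 and cytosolic proteins 0.20 with the scanner log ratio, and 0.15 and 0.22 with Cy5 alone. With no background correction the cytosolic proteins had 0.30, and with median centring 0.84.

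The members most like the median of the others were Mrps34 (r 0.89), Mrps24 (0.83), Mrpl42 (0.81) and Mrpl21 (0.80) over 9 arrays. Mrps34, Mrps24 and Mrpl21 kept r above 0.5 under each scaling, and Mrpl42 did not, with a lowest r of -0.30. Members that ran opposite to the median were Mrps27 (-0.82), a protein of the pentatricopeptide repeat family that binds RNA, Mrpl17 (-0.70) and Mrpl52 (-0.67). With median centring these 3 were 0.11, 0.91 and 0.66, so their sign depended on the scaling. Mrps27 had log2 ratios of -0.28, 0.01, -0.47 and -0.15 in the controls and -0.43, -0.01, -0.23, 0.10 and -0.15 in the cafeteria rats. Its second probe gave like values (r 0.88 between the probes, the highest among the genes with several probes, given below).

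In all, 11 genes had more than 1 tested probe. The largest gap between the log2 fold changes of a gene's probes was 0.14, for Mrpl40 (-0.01 and 0.13). That is about the size of the largest positive log2 fold change of a member (0.14, Mrpl46). Mrpl9, given above with 0.12, had 0.02 (SE 0.094) from its second probe. Over the 9 arrays, r between a gene's probes was lowest for Mrps14 (0.15, the lowest of its 3), Mrpl18 (0.20), Mrpl34 (0.22), Mrpl9 (0.28) and Mrps33 (0.29). It was 0.50 for Mrpl40, 0.73 for Mrps23, 0.81 for Mrpl17, 0.84 for Mrpl41 and Mrpl55, and 0.88 for Mrps27. For some genes the pattern from rat to rat thus depended on the probe. The second probes of Mrpl34 and Mrps33 are placed on the opposite strand to the first, and which transcript they read was not tested. Some mitoribosomal genes carried other names in the files and were outside the rule. Among these, Mrps11 had a log2 fold change of 0.07 (SE 0.074), Mrpl58 0.03 (SE 0.071) and Mrps22 -0.08 (SE 0.083), and none passed adjustment in limma.

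Genes that act with the mitochondrial ribosome were described from 5 lists. Of 68 such genes tested, 51 (75%) had a higher and 17 a lower mean in the cafeteria group. Over all genes 54.8% had a higher mean. The median log2 fold change of the 68 was 0.031, against 0.010 over all genes. Without cafeteria 1 it was -0.003, against 0.006 over all genes in that fit. None of the 68 had an unadjusted limma p under 0.05, against 4.08% of all genes. The lists differed little. The median was 0.047 for 18 genes of ribosome assembly and rRNA modification, 0.025 for 10 translation factors, 0.048 for 19 aminoacyl-tRNA synthetases and related enzymes, 0.035 for 16 genes of mitochondrial transcription and RNA processing, and 0.025 for 5 mitoribosomal proteins with other names.

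Among assembly genes the smallest p belonged to Rpusd4, a pseudouridine synthase (log2 fold change 0.095, SE 0.060), Mrm1, a methyltransferase of the large ribosomal RNA (-0.10, SE 0.062), and Malsu1, an assembly factor of the large subunit (0.14, SE 0.10). Among translation factors they were Lrpprc, which stabilises mitochondrial messenger RNAs (0.13, SE 0.083), and the elongation factors Gfm1 (0.072, SE 0.067) and Tufm (0.090, SE 0.086). The enzymes that charge mitochondrial transfer RNAs with methionine and phenylalanine, Mars2 and Fars2, had -0.14 (SE 0.075) and -0.13 (SE 0.080). Gatc, a subunit of the amidotransferase that makes glutaminyl-tRNA, had 0.12 (SE 0.079). Hsd17b10, a subunit of mitochondrial RNase P, had 0.15 (SE 0.095). Tfam, which packs mitochondrial DNA and helps start its transcription, had 0.06 (SE 0.050), and the mitochondrial RNA polymerase Polrmt 0.07 (SE 0.062). The otherwise-named ribosomal genes of smallest p were Chchd1 (0.07, SE 0.14), Aurkaip1 (0.03, SE 0.070) and Mrpl58, given above. None of these 15 genes passed adjustment in limma.

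On the mitochondrial chromosome, 10 probes on the plus strand were placed in the region of the ribosomal RNAs, the RNA partners of these proteins. In the files 1 of the 10 carries the name of another gene, Ttr. The log2 fold changes of the 10 lay between -0.74 and -0.21 (median -0.57). None passed adjustment in limma, although 9 of 10 had an unadjusted limma p under 0.05, against 4.08% of all genes. Not counted were 2 probes on the minus strand, 1 placed among the 10 and 1 further along the chromosome. Their log2 fold changes were -0.22 (SE 0.15) and -0.07 (SE 0.080), with unadjusted limma p of 0.18 and 0.40. Several of the 10 overlap or share a transcript name, so they are not separate results. Of 2 that overlap, 1 had -0.21 (SE 0.14) and the other -0.45 (SE 0.11). All 10 were negative under each alternative, with medians from -0.74 (median centring) to -0.41 (Cy5 alone). The 2 probes of the array that did pass, with -1.04 and -0.91, carry the transcript name of some of these probes but no position in the files. The 17 probes of mitochondrial protein-coding genes had a median of 0.034, and none passed. The difference of these sets from the nuclear members was not tested.

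RefSeq promoter sequences (GRCr8 build, 250 bases before to 50 after the start) were matched by symbol for 51 of the 64 members. Promoters of such genes are known for short motifs of the ETS family, NRF-1 and YY1, factors that act on many nuclear genes for mitochondria. Letters were searched on both strands. The ETS core CCGGAAG was in 15 of 51 member promoters (29.4%), against 8.75% of all 33469 promoters and 32.8% of those of cytosolic ribosomal proteins. The NRF-1 motif, in capitals in the Mrps18b and Mrpl17 sequences below and searched with any base before its TGCGC, was in 15.7%, 4.25% and 8.2% of the same sets. The YY1-like letters ATGGCGGC were in 23.5%, 2.53% and 6.56%. At least 1 of these 3 was in 28 of 51 members, a count that was not made over all promoters and so has no share to set beside it. CCAAT was in 41.2% of members and 37.5% of all promoters, and TATAAA in 11.8% and 14.2%. The general letters GGGCGG were also more frequent, in 52.9% of members, 33.1% of all promoters and 57.4% of those of cytosolic ribosomal proteins. Member promoters were 55.7% G or C, against 52.7% for all promoters. A match is a description of letters, not a measured site, and no binding was measured here.

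The 250 bases before the start are shown for 4 members whose loess values differ in kind. They are Mrps18c, of widest spread, Mrps27 and Mrpl17, which ran opposite to the median, and Mrps18b, one of the steadiest. As given above, the sign for Mrps27 and Mrpl17 depended on the scaling. Each sequence reads 5′ to 3′ on the gene's strand. Capitals mark the ETS core, here as its reverse complement CTTCCGG, in Mrps18c and Mrps27, and the NRF-1 letters in Mrps18b and Mrpl17.
Mrps18c (chr14:9122907-9123156, minus strand): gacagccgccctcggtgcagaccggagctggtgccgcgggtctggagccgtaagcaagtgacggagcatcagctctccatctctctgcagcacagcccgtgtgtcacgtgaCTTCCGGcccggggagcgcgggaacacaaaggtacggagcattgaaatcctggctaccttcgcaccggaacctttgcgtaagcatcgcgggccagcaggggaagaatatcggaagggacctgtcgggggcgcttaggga
Mrps27 (chr2:32473954-32474203, plus strand): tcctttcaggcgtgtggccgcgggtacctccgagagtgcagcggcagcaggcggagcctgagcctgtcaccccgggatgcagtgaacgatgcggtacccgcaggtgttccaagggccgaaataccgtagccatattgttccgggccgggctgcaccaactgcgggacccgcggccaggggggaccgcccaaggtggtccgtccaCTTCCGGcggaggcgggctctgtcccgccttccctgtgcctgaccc
Mrps18b (chr20:2842756-2843005, plus strand): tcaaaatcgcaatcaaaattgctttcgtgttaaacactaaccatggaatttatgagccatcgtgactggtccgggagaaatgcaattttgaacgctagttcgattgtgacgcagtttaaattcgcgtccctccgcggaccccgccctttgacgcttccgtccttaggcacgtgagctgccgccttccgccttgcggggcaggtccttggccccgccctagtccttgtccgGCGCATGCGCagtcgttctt
Mrpl17 (chr1:169575700-169575949, minus strand): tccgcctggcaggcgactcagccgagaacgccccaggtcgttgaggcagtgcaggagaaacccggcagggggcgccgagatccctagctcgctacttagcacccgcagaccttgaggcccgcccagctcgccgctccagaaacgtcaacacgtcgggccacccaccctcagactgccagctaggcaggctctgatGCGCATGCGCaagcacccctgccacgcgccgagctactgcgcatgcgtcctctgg
Within the 300 bases searched, Mrps18b also had the ETS core and Mrps27 also had the YY1-like letters, so the motifs did not divide these 4 genes.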

How the data were processed

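The authors deposited 1 scanner file per rat, with mean spot and median background intensity of both dyes, not normalized. Agilent Feature Extraction 9.5.1.1 also wrote a log10 ratio of the dyes into them, per the file headers, which served as an alternative. A further deposited table holds log2 values; its columns followed Cy5 intensity (rank correlation 0.993 to 0.999) and had medians from 9.40 to 9.69, and how the reference and centring entered it is unknown. It was filled for 21466 of 45220 spots.

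Intensities were corrected by normexp (offset 50) and turned into log2 ratios by loess within arrays in limma 3.58.1 (R 4.3.3), without control spots and spots the scanner marked as outliers. Loess sets each array's average probe to 0, so a change shared by all genes cannot be seen. Spots of a probe were averaged. Probes with Cy5 well above background on at least 4 arrays were kept (25808 of 41012). Diets were compared with limma (7 residual and 2.94 prior degrees of freedom), and p-values were adjusted by Benjamini-Hochberg over all probes, with a threshold of 0.05. The script was tested on simulated data. Arrays give no counts, so the number of arrays limits precision. The labels do not say more of the replicates than that each array is 1 rat, and 1 further control was excluded for its low RNA yield.

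Names were updated through RefSeq (19436 probes, 47.4%). Of the 64 members 63 matched, and Mrpl36 did not, since its probe is placed on another chromosome. Positions are those of the files, on rn4; exon or untranslated region is not given for a probe. The members and lists were chosen with earlier results of these data known. Members were named by rule: the 8 of smallest p in each direction, the 4 of largest and smallest SD per subunit, genes whose groups or probes stood apart, Mrps18a to Mrps18c, and Mrpl12, Mrpl11, Mrps12 and Mrps36; in each partner list, the 3 of smallest p. Members named for their likeness to the median or for a neighbouring gene were chosen after their values were seen. Alternatives covered background, normalization, starting values, reference channel, filter, probe choice, slide, pairing and each array left out.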

Additional observations from a re-analysis of the deposited data

Results flagged for a closer look

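In groups of 4 or 5 rats, 1 value of 66 groups looked at lay far from the rest of its group. Mrps2, the homolog of bacterial S2, had a log2 ratio of 0.0861 in control 7, and the nearest control was 0.00632. That gap was 0.972 of the range of the 4 controls. Chance alone marks about 5% of groups by this measure. Mrps2 was well above background on 8 of the 9 arrays.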

How the results depend on the processing

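No member passed the adjusted threshold under any of the 20 alternatives, and the smallest adjusted p among those named was 0.389, with the authors' values as deposited. Over all probes 2 passed in the main setting and 0 passed with no background correction, median centring, the scanner log ratio, Cy5 alone, the authors' values with or without centring, slide as a block, the replicate block, or without control 4 and cafeteria 4; leaving out 1 array gave 0 to 2. With the authors' values as deposited the medians were 0.160 (large subunit), 0.175 (small subunit) and 0.186 (partner genes), with all genes at 0.129, and 8 of 62 members had an unadjusted p under 0.05 (12.9%, against 12.7% of genes). Median centring gave 0.083 for the partner genes. Leaving out 1 array gave medians from -0.006 to 0.029 (large), -0.007 to 0.036 (small) and -0.003 to 0.058 (partner genes).

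Of 440 gene values under alternatives, 32 had the opposite sign; the cause was not tested. They were Mrpl12 with the scanner log ratio (0.031), Cy5 alone (0.026) and the authors' values (0.147, centred 0.025); Mrpl11 with median centring (0.077), the scanner log ratio (0.0023), Cy5 alone (0.093), the authors' values (0.180, centred 0.058) and the replicate block (0.016); Mrps12 with no background correction (0.0058), the scanner log ratio (0.040), the authors' values (0.151, centred 0.030), the slide block (0.060) and the replicate block (0.027). Further, Mrpl9 was -0.0016 with median centring, Mrps15 0.026 and Mrps31 0.079 with the authors' values as deposited, and Mrps18b -0.011 with those centred. Centred, where the median of all genes was 0.0068, Mrps15 was -0.096 and Mrps31 -0.043, with the sign of the main setting. With 1 array left out, the values that changed sign ran from -0.052 to 0.018 for Mrpl12, -0.054 to 0.023 for Mrpl11, -0.057 to 0.030 for Mrps12, -0.114 to 0.0062 for Mrps31, -0.0058 to 0.084 for Mrps18a and -0.033 to 0.223 for Mrps36.

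Same-numbered rats of the 2 diets did not deviate together (correlations -0.05, 0.11, 0.10 and -0.15), so they were not taken as pairs; control 1 and cafeteria 1 shared a slide, and the labels give the others only a number in common. With the replicate block 0 probes and 0 members passed, and the medians were 0.023 (large), 0.036 (small) and 0.058 (partner genes). The number of arrays and signal over background limit all values.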

Other observations

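Some members share their promoter region with a gene that runs the other way. Of the 51 members with a RefSeq promoter, 16 (31.4%) had such a neighbour with its start within 1000 bases, against 11% of all promoters. Of these neighbours 11 were measured, and the Pearson correlation of member and neighbour over the 9 arrays ran from -0.43 to 0.64 with a median of 0.18, as a description. The highest was for Mrps27 and Ptcd2, an RNA-binding mitochondrial protein whose start lies 91 bases away. Mrpl46 and Mrps11, of the 2 subunits, start 234 bases apart and had r of 0.51.

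Of the 11 neighbours, 4 had an unadjusted limma p under 0.05, all with a higher cafeteria mean, against 4.08% of all genes; none passed adjustment, and no member beside them had a p under 0.05. Psma2, a subunit of the proteasome that starts 210 bases from Mrpl32, had log2 ratios of -0.35, -0.04, -0.39 and -0.43 in the controls and 0.24, -0.41, 0.48, 0.49 and 0.23 in the cafeteria rats. Cafeteria 4 lay among the controls and the other 4 cafeteria rats above them. Its log2 fold change was 0.51 (SE 0.17), and that of Mrpl32 was -0.01 (SE 0.085). Fau, which encodes a cytosolic ribosomal protein and starts 186 bases from Mrpl49, had 0.25 (SE 0.10), and Mrpl49 had 0.02 (SE 0.082). For Fau control 4 stood apart at -0.23, while the other controls lay between 0.13 and 0.27 and the cafeteria rats between 0.20 and 0.47. The other neighbours of this kind were Klc4 beside Mrpl2 (0.13, SE 0.058) and Pnpla7 beside Mrpl41 (0.29, SE 0.13). For Pnpla7 control 1 stood apart at -0.79, while the other controls lay between -0.30 and -0.14 and the cafeteria rats between -0.28 and 0.04. The pairs were picked after their values were seen.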
